A study of Mus musculus with 19 samples.

Results

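Ankrd1, Ankrd2 and Ankrd23 encode the muscle ankyrin repeat proteins, and the 5-hydroxymethylcytosine (5-hmC) found in and around these 3 of the 21774 protein-coding genes examined is described here in mouse cardiomyocytes (CMCs). The genes were chosen by name as a family, except that Ankrd23 was picked for its fall in 5-hmC from neonatal to adult CMCs, so its values over these points are given as a description, with no test. 5-hmC is the product of oxidation of 5-methylcytosine by TET enzymes, and the regions that carry it were found by immunoprecipitation of DNA fragments with an antibody to 5-hmC and sequencing (hMeDIP-seq). CMCs came from E14.5 embryos, from pups aged 1 or 2 days (Neonatal), from mice aged 2 months (Adult) and from adults that had lived for 1 week with a banded aorta (TAC, transverse aortic constriction), a pressure overload that leads to hypertrophy. All mice were male, and the study's methods name the C57BL/6J strain for those that had surgery. E14.5 and neonatal cells came from digested ventricles with non-myocytes left to adhere beforehand. Adult cells came from enzyme perfusion of the left ventricle and settling by gravity. The preparations were thus enriched CMCs and not a pure cell type. At the neonatal to adult step, age cannot be told apart from the way of isolation or the ventricle sampled. Each point had 2 biological replicates, each with a list of 5-hmC peaks called against input DNA on the mm10 genome. The study's methods do not say how replicates of the same number at different points were related. They were not taken as pairs.

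The 8 lists held from 104215 to 153637 peaks, which covered from 2.39% to 4.35% of the genome. TAC replicate 2 stood apart from the other 7 lists. Of its peaks, 58.8% met a peak of another list, against 82.1% to 87.0% in the other lists, and its median distance from a peak's centre to the nearest centre in another list was 517 bp, against 53.0 to 102 bp. Values that rest on this list are therefore given with and without it. By their gene spans, 8 cardiomyocyte markers had a median coverage of 7.46% to 30.7% in the 8 lists, 8 fibroblast markers 0 to 1.77%, 8 endothelial markers 4.24% to 9.22% and 6 skeletal muscle markers 0 to 8.55%, while the median of all genes was 1.70% to 3.28%. Of the cardiomyocyte markers, Actc1 had no peak in both replicates of the Neonatal, Adult and TAC points. Of the 8 fibroblast markers, 3 to 5 had no peak over their span in each list, so the others carried some. Tcf21 alone had none in both replicates of all 4 points. At least 7 of the 8 endothelial markers carried peaks in each list. The endothelial marker coverage was above the genes' median in every list, and its part in the values below was not tested.

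The muscle ankyrin repeat proteins are small proteins of striated muscle that bind the elastic I-band part of titin, the giant spring of the sarcomere, and move between the sarcomere and the nucleus. Ankrd1 encodes CARP, a protein of the embryonic heart that partners the transcription factor YB-1 (Ybx1), binds myopalladin (Mypn) and is a classical marker of the stressed or overloaded heart. Ankrd2 encodes Arpp, which is typical of slow skeletal muscle and responds to stretch, and Ankrd23 encodes DARP, first described through its regulation in diabetic muscle. In CMCs, as in other cells, 5-hmC is known to lie mostly over gene bodies and distal elements.

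Of 1000847 peaks in all 8 lists, 107 met the genes or the 10 kb on each side of them, which is the window used below unless the gene span alone is named. On mm10, Ankrd1 spans chr19:36111965-36119844 on the minus strand (7880 bp, 9 exons), Ankrd2 chr19:42035917-42045111 on the plus strand (9195 bp, 9 exons in its curated transcript) and Ankrd23 chr1:36530193-36536556 on the minus strand (6364 bp). Ankrd23 has curated transcripts from a pair of start sites, the outer one at the end of the span and the inner one 817 bp further in. Positions below are in bp from the outermost annotated start, positive in the direction of transcription.

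The sequences below are those under the stretches on which the results turn, read from the mm10 reference on the strand of the gene, with each CpG, the usual site of 5-hmC, in capitals. The first pair comes from the middle of the Ankrd1 stretches that lay under all 4 E14.5 and neonatal lists and under no adult or TAC list: chr19:36115059-36115358, with exon 7 whole and part of exon 8, and chr19:36117918-36118217, in the intron before exon 4 with the first bases of that exon.
Ankrd1, +4486 to +4785: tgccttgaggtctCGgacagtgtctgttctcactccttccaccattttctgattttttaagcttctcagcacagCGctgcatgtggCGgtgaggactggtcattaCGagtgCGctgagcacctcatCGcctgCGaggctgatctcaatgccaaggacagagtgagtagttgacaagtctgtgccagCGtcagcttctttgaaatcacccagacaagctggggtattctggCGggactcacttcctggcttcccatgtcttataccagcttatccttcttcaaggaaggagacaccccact
Ankrd1, +1627 to +1926: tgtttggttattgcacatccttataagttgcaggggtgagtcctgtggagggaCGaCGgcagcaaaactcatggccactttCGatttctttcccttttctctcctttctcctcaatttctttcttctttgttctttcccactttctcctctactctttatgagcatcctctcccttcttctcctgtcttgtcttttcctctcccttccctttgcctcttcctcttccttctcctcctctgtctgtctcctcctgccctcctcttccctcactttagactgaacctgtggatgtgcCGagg
The next pair is from Ankrd23, and contrasts a stretch of intron under the 4 E14.5 and neonatal lists alone (chr1:36534786-36535085) with one over exons 4 and 5 that was covered in every list but TAC replicate 2 (chr1:36532360-36532659).
Ankrd23, +1471 to +1770: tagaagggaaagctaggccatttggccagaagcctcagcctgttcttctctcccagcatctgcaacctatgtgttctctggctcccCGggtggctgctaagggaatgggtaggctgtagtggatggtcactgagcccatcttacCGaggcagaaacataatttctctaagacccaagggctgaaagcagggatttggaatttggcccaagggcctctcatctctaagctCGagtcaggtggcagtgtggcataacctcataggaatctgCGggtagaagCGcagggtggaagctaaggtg
Ankrd23, +3897 to +4196: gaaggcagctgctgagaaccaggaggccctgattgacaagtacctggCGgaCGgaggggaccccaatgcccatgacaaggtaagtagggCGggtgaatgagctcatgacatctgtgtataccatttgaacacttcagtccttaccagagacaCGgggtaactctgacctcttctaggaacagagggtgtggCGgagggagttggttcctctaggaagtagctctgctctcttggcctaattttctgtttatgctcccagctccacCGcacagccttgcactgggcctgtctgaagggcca
The last pair is from Ankrd2, and shows the intron between exons 5 and 6 that was covered in the adult lists alone (chr19:42042060-42042359) and an intergenic stretch before the gene that was covered in every list but the adult ones (chr19:42034651-42034901).
Ankrd2, +6143 to +6442: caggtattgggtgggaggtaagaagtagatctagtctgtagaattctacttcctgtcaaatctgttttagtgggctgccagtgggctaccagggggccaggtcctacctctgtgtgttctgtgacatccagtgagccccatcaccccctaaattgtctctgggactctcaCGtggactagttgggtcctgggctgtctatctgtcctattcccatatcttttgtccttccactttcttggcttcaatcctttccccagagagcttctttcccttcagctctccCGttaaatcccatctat
Ankrd2, -1266 to -1016: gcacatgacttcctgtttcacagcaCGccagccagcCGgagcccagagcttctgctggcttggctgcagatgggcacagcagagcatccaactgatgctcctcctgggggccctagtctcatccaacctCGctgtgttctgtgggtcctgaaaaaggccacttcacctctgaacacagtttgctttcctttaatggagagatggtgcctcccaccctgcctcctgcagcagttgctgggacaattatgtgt
The 6 sequences differ in their CpGs. The Ankrd1 stretch over exon 7 holds 9 CpGs in 300 bp, the Ankrd23 stretches 5 and 6, the other Ankrd1 stretch 4, the Ankrd2 upstream stretch 3 in 251 bp and the adult Ankrd2 intron 2. Of the bases of the second Ankrd1 sequence, a run rich in pyrimidines, 60.7% are soft-masked as repeats or simple sequence in the reference, against 0 to 7.67% of the other 5.

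Over the windows, the share of bases under peaks did not separate the 4 points for Ankrd1 and Ankrd2. For the Ankrd1 window, E14.5 CMCs had 7.79% (replicate 1) and 17.0% (replicate 2), neonatal CMCs 10.8% and 15.7%, adult CMCs 12.6% and 7.55%, and TAC CMCs 8.72% and 11.3%. For the Ankrd2 window, E14.5 CMCs had 13.1% and 3.0%, neonatal CMCs 8.18% and 3.86%, adult CMCs 9.14% and 8.56%, and TAC CMCs 15.1% and 1.72%. The replicates of E14.5 and of TAC thus lay further apart than any of the Ankrd2 means, which were between 6.02% and 8.85%. An exact permutation test, which set the observed grouping among the 105 ways of splitting 8 samples into 4 pairs, gave p = 0.819 for Ankrd1 and p = 0.962 for Ankrd2 (one-sided, adjusted p = 1 for both over all genes). The smallest p this test can give is 0.00952. Over all genes, 1523 (6.99%) had p at most 0.05 and 0 passed after Benjamini-Hochberg adjustment, the lowest adjusted p being 0.623.

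The Ankrd23 window was among the most densely covered of all genes in every list but TAC replicate 2. E14.5 CMCs carried 43.0% and 24.3% there, neonatal CMCs 42.7% and 46.7%, adult CMCs 39.7% and 31.4%, and TAC CMCs 30.5% and 1.90%. In the 7 lists other than TAC replicate 2, from 3 genes (E14.5 replicate 1) to 520 genes (adult replicate 2) had a higher value than Ankrd23, with 18 and 49 in the neonatal lists and 142 in TAC replicate 1. There were 13347 such genes in TAC replicate 2. Against the share of the whole genome in the same list, Ankrd23 was covered from 6.93 to 14.2 times more densely in 7 lists and 0.796 times in TAC replicate 2. The corresponding range was 2.12 to 4.84 times for Ankrd1 in all 8 lists and 0.719 to 5.47 times for Ankrd2.

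**Figure D1:**
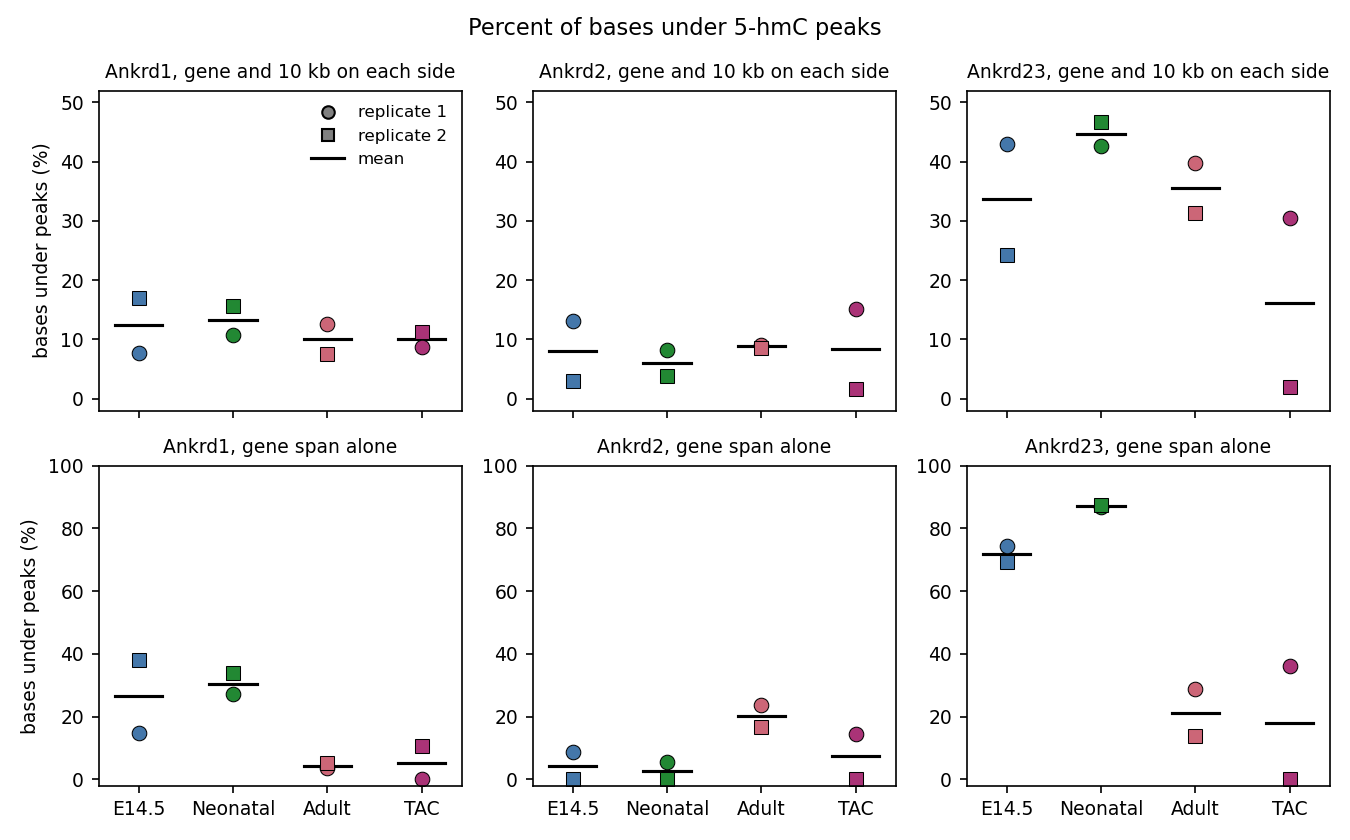
Percent of bases under 5-hmC peaks (y axis) at each point (x axis) for each gene, over the gene with 10 kb on each side (top) and over the gene span alone (bottom). Circles and squares are replicates 1 and 2 and bars are means of 2. In the bottom row Ankrd1 and Ankrd23 sit higher in all 4 E14.5 and neonatal lists than in the adult and TAC lists, and Ankrd2 is highest in the adult lists.

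Over the gene spans alone the adult means stood further from the neonatal ones than over the windows, in opposite directions within the family. The exact permutation test over the 4 points gave p = 0.133 for Ankrd1 and p = 0.229 for Ankrd2 (adjusted p = 0.793 and 0.898). By this test the spans did not separate the points either. Ankrd1 was covered over 14.9% and 38.1% of its span at E14.5 and 27.1% and 33.8% in neonatal CMCs, but over 3.52% and 5.20% in adult CMCs, and with TAC over 0 and 10.6%. For the Ankrd23 span E14.5 CMCs had 74.4% and 69.4%, neonatal CMCs 86.7% and 87.3%, adult CMCs 28.9% and 13.7%, and TAC CMCs 36.0% and 0. For both genes every E14.5 and neonatal list lay above every adult and TAC list, an arrangement found in 5.58% of all genes. It includes the fall for which Ankrd23 was picked, so for that gene it is a description. Ankrd2 ran the other way, with 8.58% and 0 for E14.5 CMCs, 5.45% and 0 for neonatal, 23.6% and 16.8% for adult, and 14.6% and 0 for TAC CMCs. Its adult replicates lay above those of each other point, though 16.8% in adult replicate 2 was close to 14.6% in TAC replicate 1. How many genes share this whole arrangement was not counted. By step, 12.2% of all genes rose without overlap from neonatal to adult, and 18.0% fell from adult to TAC.

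At the E14.5 to neonatal step the mean coverage of the Ankrd1 span went from 26.5% ± 16.5 to 30.5% ± 4.76 (SD, n = 2 each), and the replicates overlapped (exact permutation test, two-sided, p = 1). The Ankrd2 span also overlapped, at 4.29% ± 6.07 and 2.72% ± 3.85 (exact p = 1). With 2 samples against 2 this test cannot give a p below 0.333. The Ankrd23 span went from 71.9% ± 3.56 to 87.0% ± 0.411, with both neonatal replicates above both E14.5 replicates, as in 19.4% of all genes. Ankrd23 was picked for its fall from neonatal CMCs, which favours high neonatal values, so this rise is a description. With every peak set to the median width of the lists, the Ankrd23 span difference was -7.87 points. Over the windows, none of the 3 genes had replicates without overlap at this step, where 24.1% of all genes were higher and 6.26% lower.

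At the neonatal to adult step all 3 gene spans had replicates without overlap. The mean for Ankrd1 was 30.5% ± 4.76 in neonatal and 4.36% ± 1.19 in adult CMCs, a difference of -26.1 percentage points (exact two-sided p = 0.333), and 142 of the 21774 genes had a larger fall. The mean for Ankrd2 was 20.2% ± 4.78 in adult CMCs, a difference of 17.5 points from neonatal (exact p = 0.333), and 572 genes had a larger rise. Over gene spans, 16.7% of all genes were lower without overlap and 12.2% higher, so that the direction alone was common, and the median difference of all genes was 0. For Ankrd23, which was selected on this fall, the mean was 87.0% ± 0.411 in neonatal and 21.3% ± 10.8 in adult CMCs, a difference of -65.7 points, and 1 gene had a larger fall. Over its window the same fall was -9.17 points, at place 217 of all genes, between Hmga2 at -9.19 and Zkscan14 at -9.16. Here 21.2% of all genes were lower without overlap and 13.9% higher, Ankrd23 being among the former and Ankrd2, at 2.83 points, among the latter. Both values leaned on single libraries: Ankrd23 was at -5.0 without adult replicate 2, and Ankrd2 at 0.666 without neonatal replicate 2 and at 4.99 without neonatal replicate 1. The Ankrd2 replicates overlapped when all peaks were set to the same short width. The Ankrd1 window, at -3.15 points, had overlapping replicates (exact p = 0.667).

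The fall over Ankrd23 rested on the width of the peaks and not on their number. With every peak set to the median width of the lists around its centre the difference between adult and neonatal CMCs was 0.267 points over the span and 3.10 points over the window, since the wide neonatal peak counts no more than a narrow one. Over the window, division by the share of the genome covered in each list gave a difference of 0.545 points. Over the span, the same division left it at -49.3 points. For Ankrd1 the span difference was -17.8 points with peaks of the median width and -20.7 after division, and for Ankrd2 10.9 and 19, so both kept their direction.

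At the adult to TAC step, leaving out TAC replicate 2 changed the size or the sign of each difference. The Ankrd23 window differed by -19.3 points with both TAC replicates and by -5.04 without TAC replicate 2, and its span by -3.32 with both and by 14.7 without, and the sign of the span also turned without adult replicate 1, at 4.29 points. TAC replicate 1 had 36.0% of the Ankrd23 span covered, above both adult replicates, as in 15.8% of all genes, and 30.5% of the window, below both, as in 29.4% of all genes (17.4% were above). The Ankrd1 span was at 0 in TAC replicate 1, below both adult values, as in 23.7% of all genes, and at 10.6% in TAC replicate 2, above both. The Ankrd2 span was lower than in adult CMCs in both TAC replicates, the difference of means being -12.9 points with both and -5.57 without TAC replicate 2, and -20.2 without TAC replicate 1 (exact two-sided p = 0.333 with both), and 18.0% of all genes were lower in this way. Over the windows, 5.96% of all genes were higher without overlap at this step and 22.0% lower, and Ankrd23 was among the latter. That call was lost, with the difference still negative, with 5 kb flanks, with peaks of equal width, with division by the genome share and with neighbouring genes masked. The Ankrd1 and Ankrd2 windows overlapped, at -0.05 and -0.46 points (exact p = 1 for both). Without TAC replicate 2 they were at -1.35 and 6.22, and without TAC replicate 1 at 1.24 and -7.13, so neither had a stable sign.

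**Figure D2:**
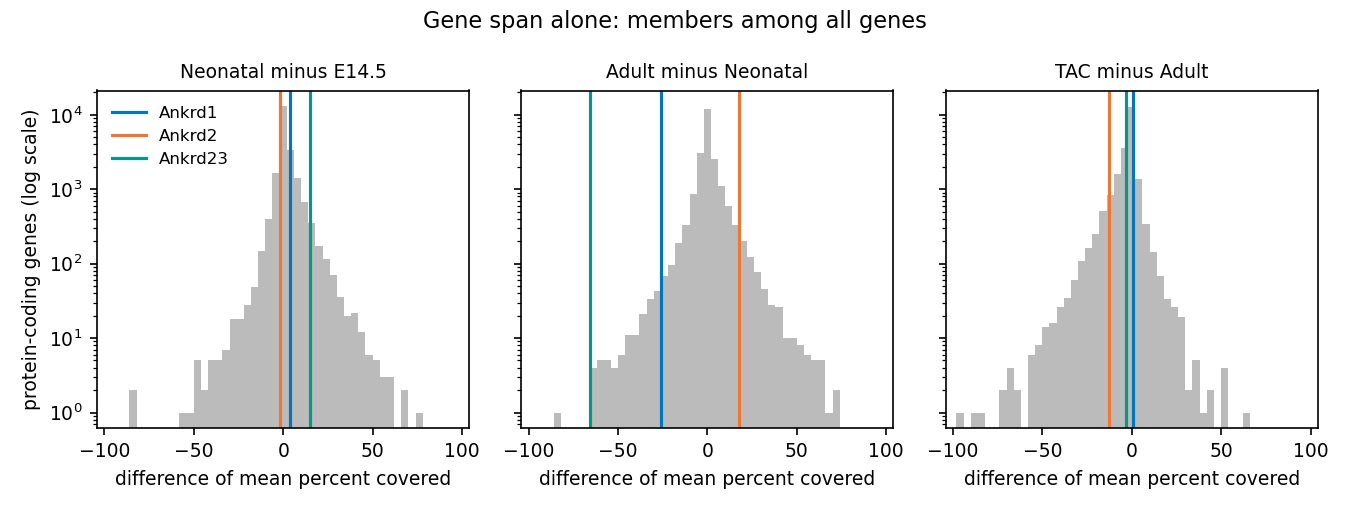
Number of protein-coding genes (y axis, log scale) by the difference of mean percent covered over the gene span (x axis, percentage points) at each step, with the 3 genes as vertical lines. In the middle panel Ankrd23 at -65.7 lies at the left edge of the distribution, Ankrd1 at -26.1 on its left slope and Ankrd2 at 17.5 on its right.

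The places of the peaks show what these percentages are made of. In Ankrd23 the body was crossed in neonatal CMCs by a single peak of 5519 bp in replicate 1 and 5489 bp in replicate 2. Only 123 and 307 peaks of those lists were at least as wide, and 99.9% and 99.8% were narrower. At E14.5 the same ground was covered by a pair of peaks in each replicate, of 2061 and 2768 bp in replicate 1 and 2009 and 2405 bp in replicate 2, with a gap from +2709 to +3809 bp in replicate 1 and from +2588 to +3730 bp in replicate 2. Adult replicate 1 had a peak of 1536 bp in the body and another of 1046 bp over the 3' end, adult replicate 2 a single one of 873 bp, and TAC replicate 1 a peak of 1791 bp and a short one. TAC replicate 2 had no peak in the gene and 1 short peak in the whole window, at -8733 bp.

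Within the Ankrd23 body the stretch from +654 to +2588 bp lay under all 4 E14.5 and neonatal lists and under no adult or TAC list. Its 1935 bp hold the inner start site and exons 1 to 3 of the transcript from that start. A further 650 bp from +4801 to +5450 bp, at the end of exon 8 and the start of exon 9, and 106 bp inside exon 9 behaved alike. Together these came to 2691 bp, or 45.4% of the bases of the gene under any list, against 0.989% over the whole genome. Ankrd23 was picked for its fall to adult, which favours such bases, so this share is a description. By contrast, the 404 bp from +3845 to +4248 bp, with exon 4 whole and most of exon 5, lay under every list but TAC replicate 2, a class that held 0.774% of the covered genome. The exons of the curated Ankrd23 transcripts followed the same course: of 10 exons, 8 to 10 were covered whole in each E14.5 and neonatal list, 1 and 4 in the adult lists, 4 in TAC replicate 1 and 0 in TAC replicate 2.

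**Figure D3:**
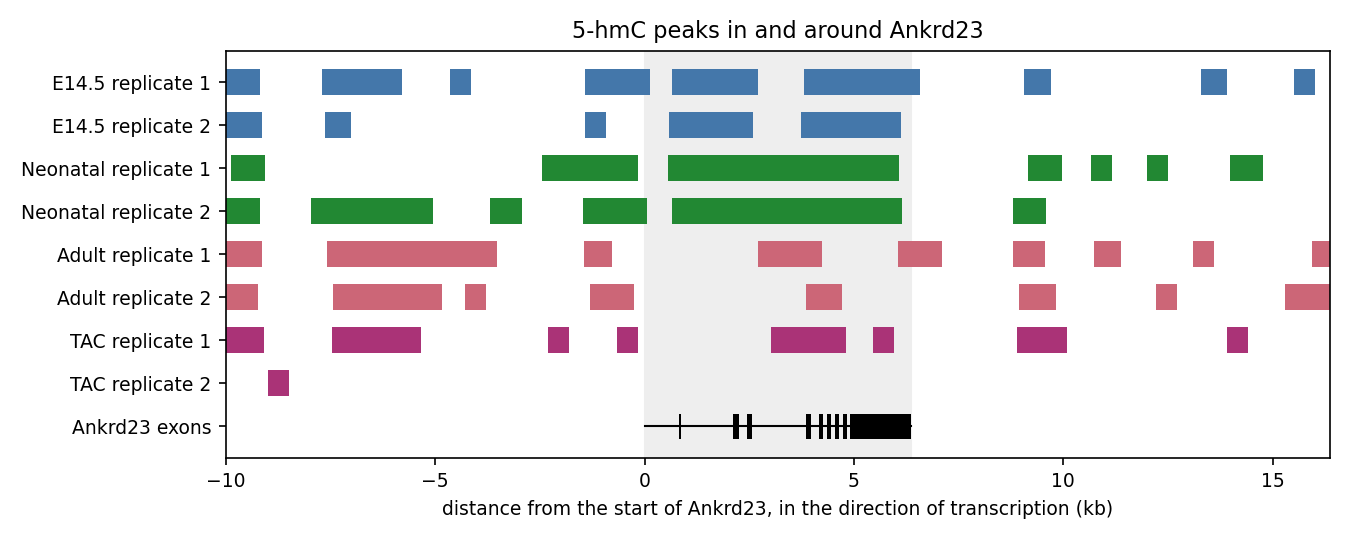
Peaks of each list (rows, bars to scale) by distance from the outer start of Ankrd23 (x axis, kb), with the gene span shaded and the exons of the transcript from the inner start in black. The neonatal rows show a single wide peak across the gene, and the adult and TAC rows leave the first 2588 bp free.

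Around Ankrd23 the adult lists kept or gained coverage. The 10 kb upstream, which lie mostly in the neighbouring gene Ankrd39, were covered over 46.4% and 20% (E14.5), 31.2% and 59.7% (Neonatal), 55.7% and 49.4% (Adult), and 40.5% and 5.01% (TAC). Adult replicate 1 had a peak of 4049 bp there, centred at -5551 bp, and only 327 peaks of that list were as wide. The 660 bp from -9883 to -9224 bp were covered in every list but TAC replicate 2. The downstream 10 kb, mostly in Cnnm3, a gene of a cation transporter family, were covered over 19.7% and 0 (E14.5), 26.3% and 7.82% (Neonatal), 30.6% and 24.6% (Adult), and 17.0% and 0 (TAC). Both flanks of Ankrd23 were thus at least as covered in the adult mean as in the neonatal one (52.5% against 45.4% upstream and 27.6% against 17.1% downstream, replicates overlapping), so the window fell far less than the gene.

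In Ankrd1, 2 places within the gene were shared by all 4 E14.5 and neonatal lists. One peak, at most 770 bp wide, was centred between +1755 and +1882 bp over the end of exon 3 and exon 4, and another, of 670 to 1110 bp, between +4481 and +4636 bp over exons 6 to 8, each in both E14.5 and both neonatal replicates. Exons 6 to 8 encode ankyrin repeats of CARP. No adult or TAC list had a peak that touched either place, the 458 bp from +1548 to +2005 and the 670 bp from +4301 to +4970 being covered by the 4 early lists alone. These 1128 bp were 25.9% of the bases of the Ankrd1 span under any list, against the 0.989% over the genome. The class of bases was chosen with earlier results of these data known, so this share is a description and not a test. Another place, over the last exon, was shared across birth: it had a peak centred between +7621 and +7853 bp in E14.5 replicate 2, both neonatal and both adult replicates, and in no TAC list. The last, downstream of the gene and centred between +9786 and +10850 bp, was present in 7 lists and missing in neonatal replicate 1, and was at most 1930 bp wide.

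**Figure D4:**
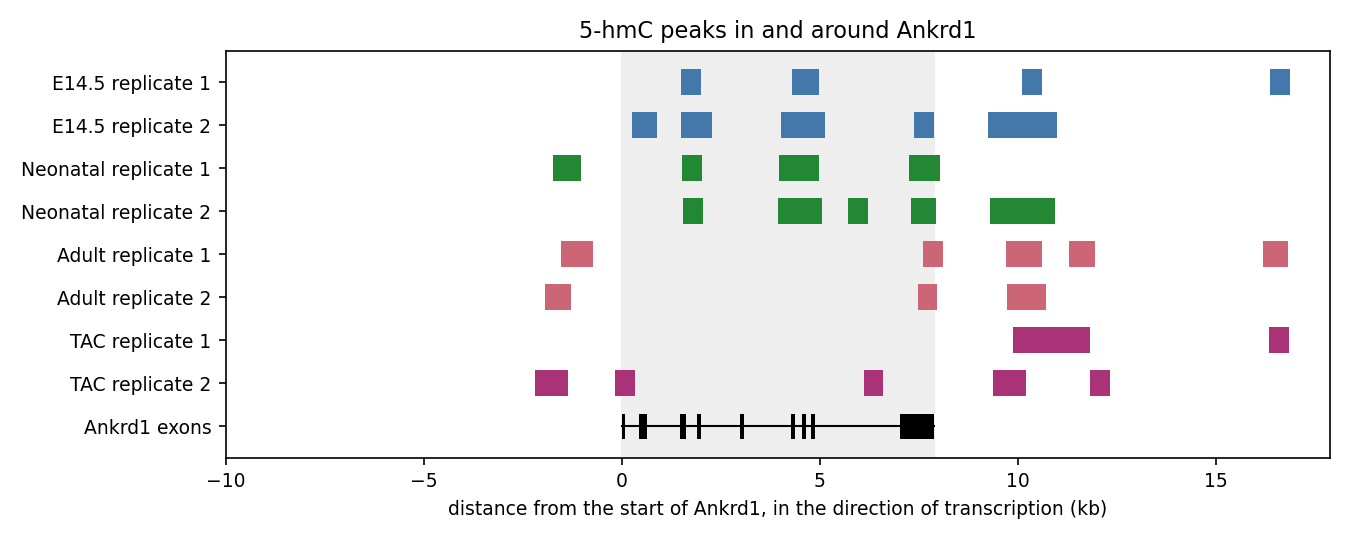
Peaks of each list (rows, bars to scale) by distance from the start of Ankrd1 (x axis, kb), with the gene span shaded and exons in black. The blocks near 1.8 and 4.5 kb are in the 4 E14.5 and neonatal rows and in no adult or TAC row.

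Upstream of Ankrd1 a peak was found between -2190 and -727 bp in neonatal replicate 1, both adult replicates and TAC replicate 2, and no E14.5 list had a peak in the upstream 10 kb. The coverage of these 10 kb was thus 0 at E14.5, while the neonatal lists had 7.01% and 0, those of adults 8.14% and 6.34%, and the TAC lists 0 and 9.98%. The promoter itself was bare: of the 8 lists, only TAC replicate 2 had a peak that met the 300 bp from 250 bp before to 50 bp after the start. Promoters defined in this way met a peak for 4.95% to 6.59% of 21263 genes' starts in the 8 lists, so a bare promoter is the usual state. For Ankrd2 the corresponding promoter was met in E14.5 replicate 1 and TAC replicate 1. For Ankrd23 the outer promoter was met in 4 lists, E14.5 replicate 1, both neonatal replicates and TAC replicate 1, and the inner one in the 4 E14.5 and neonatal lists.

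In Ankrd2 the adult lists shared what the earlier lists lacked. A peak of the median width reached from exon 5 into exon 6 in both adult replicates, centred at +6232 and +6352 bp, and no other list had a peak within the gene beyond +1419 bp. In the long first intron, both adult replicates had a peak of 1165 and 1044 bp centred at +1387 and +1140 bp, where E14.5 replicate 1 and neonatal replicate 1 had narrower peaks, the wider of them of 628 bp. Stretches under both adult lists and no E14.5 or neonatal list made up 623 bp, or 20.1% of the covered bases of the Ankrd2 span, against 2.16% over the genome. Before the gene the order was reversed: the 275 bp from -1290 to -1016 bp, from the last bases of Ubtd1 into the gap before Ankrd2, lay under all 6 E14.5, neonatal and TAC lists and under neither adult list. Such bases were 0.0313% of the covered genome. Both this class of bases and the adult one were chosen with earlier results of these data known. Their shares are thus descriptions and not tests. The ends of the stretch were set by single peaks of the median width, in neonatal replicate 2 and TAC replicate 2. The adult peaks stood next to the stretch, centred at -2246 and -2070 bp over the last exon of Ubtd1. The peak of adult replicate 2 reached to -1593 bp, so a small shift of peaks could give this pattern. TAC replicate 1 had a single peak of 3898 bp from -2554 to +1343 bp across the start of Ankrd2, with only 286 peaks of that list as wide, and E14.5 replicate 1 one of 2705 bp up to +160 bp.

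The bases under the peaks were richer in CpG than the rest of the windows for Ankrd23 and Ankrd1 in every list but TAC replicate 2. The Ankrd23 window holds 460 CpGs, and its peaks had 1.81 to 2.21 CpGs per 100 bp in those 7 lists, against 1.46 to 1.70 outside them. The Ankrd1 window holds 345, with 1.90 to 2.80 per 100 bp under the peaks and 1.04 to 1.16 outside. In TAC replicate 2 the order was reversed for both, with 0.200 against 1.77 for Ankrd23 and 1.14 against 1.25 for Ankrd1. The Ankrd2 window holds 392 CpGs, and 2 lists, E14.5 replicate 2 and neonatal replicate 2, had fewer per 100 bp under peaks than outside. Counted by CpG, the Ankrd23 span had 100 and 91 of its 124 CpGs under peaks in the E14.5 lists, 111 and 115 in the neonatal lists, 32 and 26 in those of adults, and 57 and 0 with TAC. Of the 102 CpGs of the Ankrd1 span, 26 and 60 were under peaks in the E14.5 lists, 45 and 50 in the neonatal lists, 12 and 16 in those of adults, and 0 and 3 with TAC.

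Among 22 genes whose products are partners of the family or neighbours in the I-band and Z-disc, 14 windows were higher in neonatal than in E14.5 CMCs without overlap and 0 lower, where 24.1% of all genes were higher and 6.26% lower, with a median difference of 7.91 points against 0.401 for all genes. Titin (Ttn), the main partner, had the largest rise, from 13.7% and 5.86% at E14.5 to 41.1% and 40.1% in neonatal CMCs, and Capn3, a protease anchored on titin, had 9.43% and 16.6% and then 7.95% and 14.2%. At the neonatal to adult step 3 of the 22 were higher and 9 lower, where 13.9% and 21.2% of all genes were, with a median of -2.91 points against -0.100. Ttn was at 25.5% and 26.7% in adult CMCs, below both neonatal values, as were Palld (palladin), from 18.5% and 20% to 14.3% and 18.2%, and Fhl2, a LIM protein of the I-band, which had the largest fall, from 32.1% and 32.2% to 3.77% and 6.44%. Mypn was the other way, from 13.1% and 14.4% to 19% in the higher adult replicate, with a difference of means of 2.96 points. Its lower adult replicate lay only just above the higher neonatal one, by less than the neonatal replicates differed from each other. The Mypn replicates were thus almost touching, and its count among the higher genes rests on that narrow margin. From adult to TAC 0 were higher and 6 lower, near the 5.96% and 22.0% of all genes, and without TAC replicate 2, 3 were higher and 7 lower, near the 17.4% and 29.4% of all genes. In TAC the values were 27.6% and 6.95% for Ttn, 15.3% and 8.83% for Mypn and 13.3% and 8.86% for Palld. Tcap, the titin cap, had 23.9% and 42.0% in adult CMCs against 28.6% and 11.0% with TAC, and Fhl2 5.99% and 5.44% in TAC CMCs.

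Among 10 genes of factors known to act on Ankrd1, 7 were higher at the E14.5 to neonatal step and 0 lower, where 24.1% and 6.26% of all genes were (median 5.00 points, against 0.401). Gata4, a cardiac transcription factor that drives the Ankrd1 promoter, had the largest rise, from 10.5% and 8.69% to 19.8% and 23.9%, and then the largest fall to adult, to 9.81% and 12.3%. Tgfb1 had 17.9% and 20.9% at E14.5 and 7.19% and 24.6% in neonatal CMCs. At the neonatal to adult step 1 gene was higher (Wwtr1, the co-activator TAZ, from 14.0% and 14.8% to 18.8% and 18.2%) and 2 lower, near the 13.9% and 21.2% of all genes, with a median of 0.507 points against -0.100. From adult to TAC 0 were higher and 4 lower, or 1 and 5 without TAC replicate 2, and the median was -3.02 points against -0.408. Of all genes, 5.96% were higher and 22.0% lower with both TAC replicates, and 17.4% and 29.4% without TAC replicate 2. Smad3 had 27.8% and 33.2% in adult CMCs against 24.3% and 13.3% with TAC, and Hand2 2.13% and 0 and then 0 and 7.05%. Of the 44 other genes named Ankrd with a number, which share the repeat and not a role in the sarcomere, 24 were higher and 2 lower at the first step, 8 and 7 at the second and 6 and 12 at the third (14 and 14 without TAC replicate 2), with medians of 1.97, 0.00 and -1.56 points. For all genes the shares were 24.1% and 6.26%, 13.9% and 21.2%, and 5.96% and 22.0% (17.4% and 29.4% without TAC replicate 2), with medians of 0.401, -0.100 and -0.408 points, so the counts at the second step were near the background. Their extremes were Ankrd13a, from 16.4% and 13.5% to 32.8% and 37.4%, and Ankrd22, from 2.59% and 2.40% to 1.01% and 0, at the first step. At the second they were Ankrd13b, from 17.0% and 32.0% to 31.4% and 37.6%, and Ankrd39, which shares its window with Ankrd23, from 36.7% and 59.5% to 35.0% and 38.8%. At the third they were Ankrd35, from 5.91% and 7.57% to 8.98% and 11.3%, and again Ankrd39, at 28.3% and 3.45% in TAC CMCs.

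By the distance between the 8 percentages, the genes whose windows were most like that of Ankrd23 were Plxnd1, Smyd2 and Gm46294, at Euclidean distances of 17.7, 18.4 and 19 points. Smyd2, a methyltransferase, had 33.9% and 22.1% (E14.5), 42.5% and 46.9% (Neonatal), 43.2% and 43.3% (Adult), and 29.5% and 11.7% (TAC). It did not share the fall to adult. Gm46294 had 33.7% and 48.7% in neonatal CMCs against 34.3% and 32.3% in adult CMCs, and its replicates overlapped at this step. The nearest to Ankrd1 were Hsd11b1, Tmem100 and Parvg (6.31 to 6.91 points), and to Ankrd2 they were AU022252, Map1s and Ly6g5c (4.87 to 6.40 points). These likenesses are over 8 lists of the same libraries and are a description.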

How the data were processed

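Per the labels and the study's methods, hMeDIP-seq reads of 8 libraries, 2 for each of E14.5, Neonatal, Adult and TAC, were aligned to mm10 with BWA (0.7.4-r385 in the submitters' processing notes), duplicates were marked with Picard, and peaks were called with HOMER in each replicate against input. The deposited peak lists give the place of each peak and, per the file headers, a score, which is 1 in every line and was not used. Depth and peak height are not in these lists, so no counting interval can be given. In 4 lists the headers say that immunoprecipitate tags were scaled to control, and in the other 4 the reverse. Of 19 samples, the input and sh-control libraries have no list and were not analysed here.

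The percent of bases under merged peaks was computed with Python 3 and numpy for the RefSeq (GRCm38.p6) span of each of 21774 protein-coding genes with 10 kb on each side, and for the span alone. Points were compared by exact permutation over samples, with Benjamini-Hochberg adjustment over all genes, and replicates called without overlap where the lowest value of one point was above the highest of the other. Code was tested on simulated data. The members, lists and stretches were chosen with earlier results of these data known. The sequences printed are the middle 300 bp or less of the longest stretches of each kind outside UTRs and neighbouring genes. Genes named are the members, their neighbours, the 3 windows nearest to each by Euclidean distance, and for each list the largest rise and fall at each step with Ttn, Mypn and Palld. One gene that this rule selects is not reported here. Alternatives were other flanks, peak widths, scaling, shared peaks, left-out replicates, a replicate block and other annotations. No protein sequence was used.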

Additional observations from a re-analysis of the deposited data

How the results depend on the processing

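With 2 replicates a point and no read counts in the lists, a difference is limited by the spread of 2 values, and no test of 2 against 2 can pass 0.05. In the other tests the adjusted p of Ankrd1 and Ankrd2 over the 4 points was at least 0.793 under every alternative run, and the unadjusted p ranged from 0.133 to 1. Same-numbered replicates did not deviate together at all points (correlations over genes of -0.297 to 0.241), so the numbers were not taken as pairs. With the number as a replicate block, p was 0.833 for Ankrd1 and 0.875 for Ankrd2, and the differences stay as they are by construction. GENCODE spans and all alternatives for gene spans were added after the data were seen.

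With the gene span in place of the window, the adult minus neonatal difference was -26.1 points for Ankrd1, 17.5 for Ankrd2 and -65.7 for Ankrd23, and the TAC minus adult one was -12.9 for Ankrd2 and -3.32 for Ankrd23. With 5 kb flanks the former were -6.68, 5.93 and -24.9. With neighbouring genes masked they were 11.0 for Ankrd2 and -44.6 for Ankrd23. With only peaks met in the other replicate the Ankrd23 window fell by 3.85. With all peaks set to the median width the Ankrd23 window gave -0.933 for neonatal minus E14.5 and 3.10 for adult minus neonatal, which reversed it, and with wider ones of about 4 times that -4.98 and 13.7. Relative to the genome share it was 0.545 for adult minus neonatal, also reversed. With the wider peaks the Ankrd2 window gave 5.83 for adult minus neonatal and -13.7 for TAC minus adult.

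Over gene spans, peaks of the median and the wider width gave -17.8 and -59.8 points for Ankrd1 and 10.9 and 42.7 for Ankrd2 (adult minus neonatal), -51.4 for Ankrd2 at the wider one (TAC minus adult), and for Ankrd23 the reversed values 0.267 and 5.48 (adult minus neonatal) and -7.87 and -31.8 (neonatal minus E14.5). Relative to the genome share, Ankrd1 was at -20.7 and Ankrd23 at -49.3 (adult minus neonatal) and 3.09 (neonatal minus E14.5). The reversals with peaks of equal width follow from their construction, since the wide neonatal peaks of Ankrd23 are cut to 1 short one; the causes of the other shifts were not tested.

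Without each replicate in turn, adult minus neonatal ranged from -29.5 to -22.7 for the Ankrd1 span, 14.1 to 20.8 for Ankrd2 and -73.3 to -58.1 for Ankrd23. TAC minus adult changed sign for the Ankrd1 span (-4.36 to 6.25) and the Ankrd23 span (-21.3 to 14.7, turning without TAC replicate 2 and without adult replicate 1). For the windows, adult minus neonatal ranged from -5.67 to -0.624 for Ankrd1, 0.666 to 4.99 for Ankrd2 and -13.3 to -5.0 for Ankrd23, and TAC minus adult from -2.58 to 2.47, -7.13 to 6.22 and -33.6 to -5.04. Relative to the genome share, the genes without overlap were 3227 in place of 1364 lower at the first step, 5683 in place of 3029 higher at the second and 2654 in place of 1297 higher at the third.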
